A study of Mus musculus with 20 samples.

Results

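The mRNAs of replication-dependent histones are made without a poly(A) tail and depend on a small group of dedicated factors, and the levels of these factors in brain are described here. The group holds 7 genes, Slbp, Lsm10, Lsm11, Zfp473, Npat, Casp8ap2 and Eri1, taken by name from the 45700 genes of the deposited table. The libraries came from brains of “Taiwanese” SMA mice (Smn-/-; SMN2tg/0, 2 copies of human SMN2 on a null murine Smn background) and of control littermates that carried 1 intact Smn allele and, by the study's methods, the same transgene. All mice were congenic FVB, and brains were taken at postnatal day 5 (early-symptomatic, 2 replicates per genotype) or day 7 (late-symptomatic, 3 replicates per genotype). For each genotype, stage and replicate number there was a library of total cytoplasmic RNA, pooled from all fractions of a sucrose gradient, and a library of polysomal RNA, pooled from the fractions that hold mRNAs loaded with several ribosomes. This made 20 libraries. Values are FPKM, fragments scaled by transcript length and by library size, so they can be compared between genes as levels per length. The table gives no counts, and the depth behind a value is unknown.

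In these histone mRNAs the 3′ end is formed by a single cut downstream of a conserved stem-loop. SLBP binds the stem-loop, and the U7 snRNP, a particle built on the U7 snRNA, base pairs with a site further downstream and brings in the nuclease. The U7 particle carries a ring in which LSM10 and LSM11 take the places that SmD1 and SmD2 hold in spliceosomal snRNPs. The SMN complex, which is short of SMN in SMA, loads both kinds of ring. Zfp473, also called Zfp100, binds the SLBP and stem-loop complex together with LSM11. CASP8AP2, also called FLASH, binds LSM11 and recruits the cleavage factors. NPAT is the coactivator of histone gene transcription and the hallmark of histone locus bodies. ERI1 is an exonuclease that binds the same stem-loop and takes part in the decay of histone mRNA. Most of this machinery serves cells in S phase.

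The sequences that SLBP and ERI1 recognise are shown first, as copied from the reference genome (GRCm38, GENCODE M21 transcripts), because they are what links these factors to the histone genes measured beside them. Among 69 replication-dependent histone genes with a transcript in that annotation, 31 matched the fixed stem-loop pattern searched for, in 2 forms. The form of Hist3h2ba was the commoner of these, found in 24 genes. A stem-loop with bases outside the pattern, or beyond the end of the annotated transcript, would not be found. The genes without a match are therefore not shown to lack a stem-loop. Hist1h4d had the highest FPKM of all histone genes with a match. The 16 bases of the stem-loop are in capitals, with 5 bases on each side, for Hist1h4d at chr13:23581945-23581970 (plus strand) and Hist3h2ba at chr11:58949344-58949369 (plus strand).
Hist1h4d: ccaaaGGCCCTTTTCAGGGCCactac
Hist3h2ba: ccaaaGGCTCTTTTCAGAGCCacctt
The U7 snRNA gene Rnu7 lies at chr6:124741225-124741286 on the minus strand, and its 62 bases are printed because the ring of LSM10 and LSM11 forms on the letters in capitals, which start at base 21.
Rnu7: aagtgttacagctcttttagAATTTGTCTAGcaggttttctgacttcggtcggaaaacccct
Rnu7 was listed at 0 FPKM in all 20 libraries. A listed 0 may be a failed estimate, and nothing is read from it about the level of U7 snRNA.

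Throughout, a gene was called where the unadjusted limma p of a comparison was under 0.05, and Benjamini-Hochberg adjusted p-values cover all 15247 genes tested. All 7 factors had a value above 0 in every library, and their levels spanned a wide range. Lsm11 was the most abundant, at 36.0 ± 4.40 FPKM (SD, n = 20 libraries), and stood at percentile 80.4 of the 15247 genes tested. Slbp followed at 25.6 ± 5.98 FPKM and Lsm10 at 17.0 ± 2.58 FPKM. Casp8ap2, at 8.68 ± 1.23 FPKM, Npat, at 5.78 ± 0.974 FPKM, and Eri1, at 4.59 ± 0.593 FPKM, were lower. Zfp473 lay between 0.2 and 0.75 FPKM and had a mean of 0.454 FPKM, under the minimum of 1 FPKM for testing, so 6 of the 7 members entered the tests. Within the 8 groups of libraries this order mostly held. Lsm11 and Slbp overlapped in 1 group (early-symptomatic control total RNA) and were reversed without overlap in another, early-symptomatic control polysomal RNA, where Slbp lay above Lsm11. Slbp and Lsm10 overlapped in 1 group (late-symptomatic SMA total RNA), and Npat and Eri1 in 3. The mRNAs of the 2 ring proteins that define the U7 particle thus differed in level, with Lsm11 above Lsm10 in every library.

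**Figure D1:**
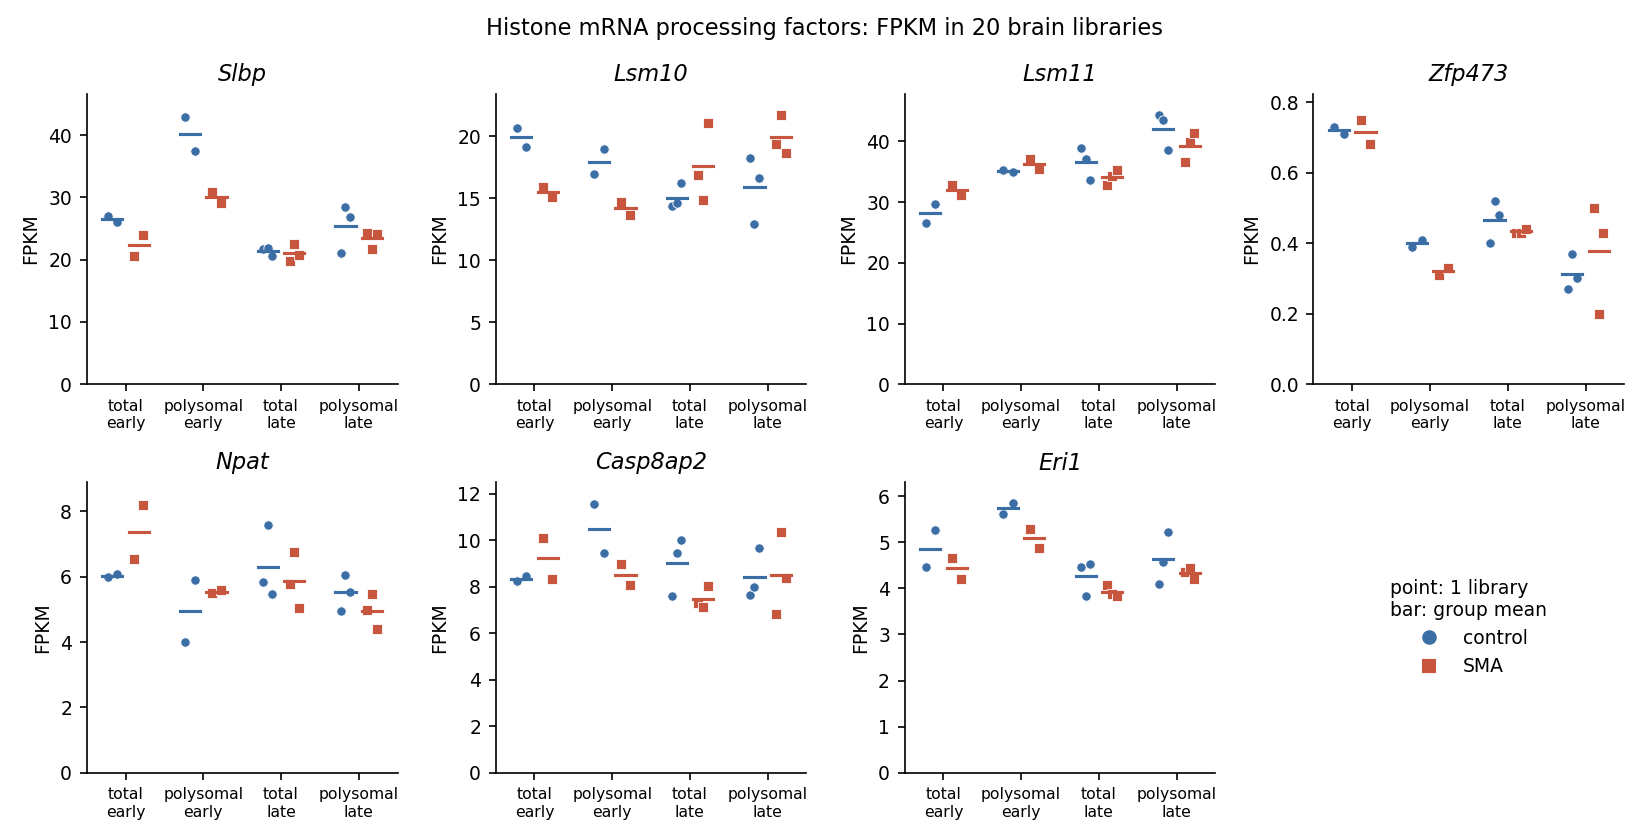
FPKM (linear axis from 0) of the 7 factors in each library, grouped by fraction and stage, with control mice as circles, SMA mice as squares and bars at group means. Slbp reached its highest values, 42.88 and 37.5 FPKM, in the early-symptomatic control polysomal libraries.

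The 7 genes lie on 6 chromosomes of GRCm38. Slbp (ENSMUSG00000004642.11) lies at chr5:33634952-33652574 on the minus strand, and its longest annotated transcript has 2922 nucleotides. Lsm10 (ENSMUSG00000050188.8, chr4:126096623-126098584, plus strand) has the shortest transcript of the group, 943 nucleotides. Lsm11 (ENSMUSG00000044847.11, chr11:45928269-45944935, minus strand) has one of 6453 nucleotides. Zfp473 (ENSMUSG00000048012.16) lies at chr7:44731480-44751050 on the minus strand, Npat (ENSMUSG00000033054.7) at chr9:53537047-53574342 on the plus strand, Casp8ap2 (ENSMUSG00000028282.10) at chr4:32615451-32653265 on the plus strand and Eri1 (ENSMUSG00000031527.6) at chr8:35465253-35496196 on the minus strand. The locus that the deposited table gives for Slbp also takes in Tmem129, Tacc3 and Gm10459, and that of Zfp473 takes in Vrk3. Of the members, only Slbp and Zfp473 had such a shared locus.

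Before the comparisons, 2 properties of the libraries need stating. Both early-symptomatic control polysomal libraries list at 0 FPKM all 191 genes of 1 deposited locus on chromosome 8 (start 119910359, end 124345724), 61 of which had more than 1 FPKM in each of the other 18 libraries. None of the 7 factors lies there, Eri1 being elsewhere on that chromosome, and of the other genes listed here only Tubb3 and Acta1 do. Smn1, which is inactivated in SMA mice, had 8.92 to 9.71 FPKM in control and 9.55 to 10.09 FPKM in SMA early-symptomatic total RNA, and 13.56 to 16.7 against 11.94 to 17.49 FPKM late-symptomatic. The null allele of this line lacks an exon near its 3′ end, and a value over the whole gene does not check the genotype. As for the tissue, neuronal markers other than Tubb3 summed to between 1104 and 2854 FPKM over the libraries, and no marker of neurons, astrocytes, oligodendrocytes, microglia or endothelium was at 0 in every library.

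At the early-symptomatic stage Slbp and Lsm10 were the members called between SMA and control brains, both lower in SMA. Slbp, whose protein stays with histone mRNA into the cytoplasm and promotes its translation, stood at 42.88 and 37.5 FPKM in control polysomal RNA and at 30.86 and 29.11 FPKM in SMA polysomal RNA. Both SMA values lay below both control values, with a log2 fold change of −0.42 (SE 0.10, 95% interval −0.71 to −0.12, limma adjusted p = 0.386). The deposited locus of Slbp also takes in Tacc3, Tmem129 and Gm10459, and their part in the Slbp values was not tested. Total RNA of the same stage had 27.04 and 26.06 FPKM of Slbp in control against 20.62 and 23.95 FPKM in SMA brains. These did not overlap either, but the log2 fold change of −0.26 (95% interval −0.57 to 0.06) was not called. With SMA replicate 1 or 2 left out of the polysomal libraries the log2 fold change of Slbp was −0.46 and −0.38 and was no longer called, the lone SMA library being assumed to vary like the controls. Without SMA replicate 2, Slbp was called in total RNA (log2 fold change −0.36).

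Lsm10, the SmD1-like ring protein of U7, fell in both early-symptomatic fractions. Its total RNA values were 20.68 and 19.15 FPKM in control against 15.9 and 15.1 FPKM in SMA brains, a log2 fold change of −0.36 (SE 0.08, limma adjusted p = 0.551). Its polysomal values were 16.94 and 18.96 FPKM against 14.73 and 13.63 FPKM, a log2 fold change of −0.34 (SE 0.10, limma adjusted p = 0.393). The genotypes did not overlap in either fraction. When a trend of fold change with transcript length, fitted over all genes, was removed, the log2 fold changes of Lsm10 were −0.13 and −0.16 and neither was called, whereas Slbp in polysomal RNA stayed called at −0.36. In polysomal RNA Lsm10 was not called either with 1 model over all libraries or with the replicate number as a block. The call of Lsm10 was also lost in total RNA without control replicate 1 (−0.30), control replicate 2 (−0.41) or SMA replicate 2 (−0.32), and in polysomal RNA without control replicate 2 (−0.26), SMA replicate 1 (−0.39) or SMA replicate 2 (−0.28).

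Its ring partner was called in neither early-symptomatic fraction. Lsm11, which unlike Lsm10 also contacts CASP8AP2 and Zfp473, stood at 26.64 and 29.76 FPKM in control early-symptomatic total RNA and at 32.79 and 31.13 FPKM in SMA, a log2 fold change of 0.18 that was not called (95% interval −0.08 to 0.45). Its polysomal values were 35.32 and 34.9 FPKM against 37.18 and 35.39 FPKM, a log2 fold change of 0.05 (95% interval −0.14 to 0.23). The genotypes did not overlap in either fraction, with SMA above control. With the length trend removed, the log2 fold changes of Lsm11 were 0.02 in total and −0.08 in polysomal RNA. The sign turned in polysomal RNA, and neither was called. The ratio of Lsm11 to Lsm10 FPKM was 1.29 and 1.55 in early-symptomatic control total RNA and 2.06 in both SMA libraries, and 2.09 and 1.84 against 2.52 and 2.60 in polysomal RNA. Late-symptomatic, the ratios were 2.08 to 2.71 in control and 1.67 to 2.30 in SMA total RNA, and 2.32 to 3.36 against 1.84 to 2.21 in polysomal RNA. Early-symptomatic ratios were higher in SMA without overlap, and late-symptomatic ones overlapped in total RNA and were lower in SMA without overlap in polysomal RNA. These ratios are given without a test and without removal of the length trend, between transcripts of 6453 and 943 nucleotides. With it removed, the early log2 fold changes of Lsm11 and Lsm10 lay closer, at 0.02 and −0.13 in total RNA. They were −0.08 and −0.16 in polysomal RNA.

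Across the tested members, 1 of 6 was called in early-symptomatic total RNA, where 8.25% of all tested genes were called in either direction, and 2 of 6 in polysomal RNA, where 12.5% were. Neither fraction had a member called higher in SMA, and 0 of 6 passed the adjusted threshold, which 0.164% and 0.649% of genes passed. Tested on the 14335 genes with no library at 0 FPKM alone, the number past it was 0 in total RNA, in place of 25, and 3 in polysomal RNA, in place of 99. With 1 model over all libraries the background rose to 19.8% in total and 25% in polysomal RNA. With libraries rescaled to equal medians, the share of the polysomal calls that were higher in SMA moved from 45.3% to 33.4% over all genes. Npat, the transcriptional coactivator, had 5.98 to 6.08 FPKM in control and 6.53 to 8.19 FPKM in SMA total RNA. The groups did not overlap, and the log2 fold change of 0.27 (SE 0.16) was called only without SMA replicate 1 (0.44). In polysomal RNA Npat overlapped between genotypes, at 4.01 to 5.89 against 5.49 to 5.6 FPKM. Casp8ap2 had 8.23 to 8.47 FPKM in control and 8.33 to 10.11 FPKM in SMA total RNA, and 9.45 to 11.56 against 8.06 to 8.99 FPKM in polysomal RNA. The exonuclease gene Eri1 had 4.46 to 5.26 against 4.20 to 4.67 FPKM in total RNA and 5.62 to 5.85 against 4.88 to 5.29 FPKM in polysomal RNA. Both lay below control without overlap in polysomal RNA, with log2 fold changes of −0.29 (95% interval −0.77 to 0.18) and −0.17 (95% interval −0.55 to 0.21), and overlapped in total RNA. Zfp473 stood at 0.73 and 0.71 FPKM in control against 0.75 and 0.68 FPKM in SMA total RNA, and at 0.39 and 0.41 against 0.31 and 0.33 FPKM in polysomal RNA. Fitted with a minimum of 0.1 FPKM, it was called in none of the 4 comparisons between genotypes. In a bulk sample, fewer cells of a type and less RNA per cell cannot be told apart. With 2 libraries against 2, an exact permutation test cannot go below p = 0.333.

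**Figure D2:**
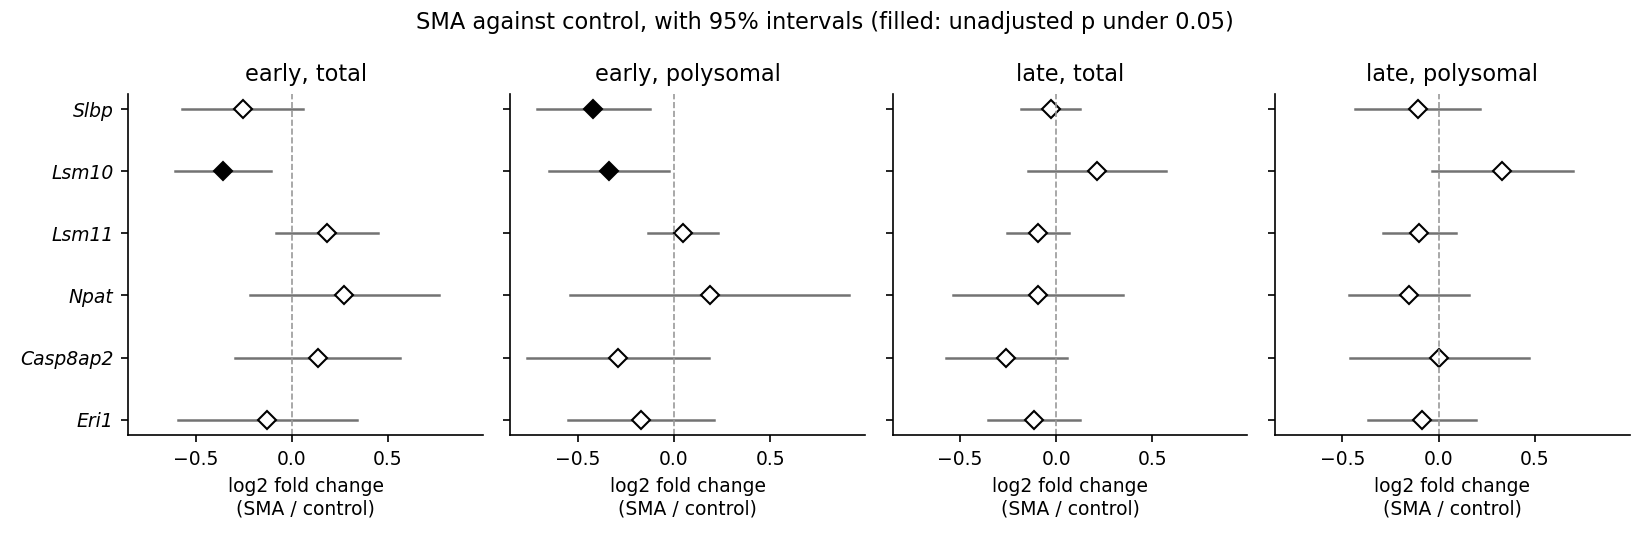
Log2 fold changes of SMA over control (points) with 95% limma intervals (lines) for the 6 tested members in the 4 comparisons, filled where the unadjusted p was under 0.05. Lsm10 at −0.36 and −0.34 and Slbp at −0.42 are the filled points, and none is filled late-symptomatic.

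At the late-symptomatic stage no member was called. The counts were 0 of 6 in total RNA, against 9.54% of all tested genes, and 0 of 6 in polysomal RNA, against 10.7%, and 0.111% and 0.0918% of genes passed the adjusted threshold. Slbp in total RNA stood at 21.73, 21.94 and 20.57 FPKM in control and at 19.77, 22.5 and 20.78 FPKM in SMA brains, and the groups overlapped (log2 fold change −0.03, 95% interval −0.18 to 0.13). Polysomal RNA had 21.04, 28.41 and 26.79 FPKM of Slbp against 24.32, 21.72 and 24.2 FPKM (log2 fold change −0.11, 95% interval −0.43 to 0.22). Control replicate 1 was the low one of its group, and without it Slbp was called, with a log2 fold change of −0.24. Lsm10 lay above control in SMA polysomal RNA, at 19.39, 21.69 and 18.67 FPKM against 18.28, 12.95 and 16.6 FPKM. The groups did not overlap, and the log2 fold change of 0.33 (SE 0.14, 95% interval −0.04 to 0.70) was not called, though it was without control replicate 1 (0.44). In total RNA Lsm10 overlapped between genotypes, with 14.37, 14.6 and 16.21 FPKM in control against 16.92, 14.86 and 21.09 FPKM in SMA brains.

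Lsm11 was between 33.66 and 38.89 FPKM in late-symptomatic control and between 32.87 and 35.23 FPKM in SMA total RNA. The log2 fold change was −0.10 (95% interval −0.26 to 0.06), and it was called when control replicate 3 was left out (−0.15). Casp8ap2, the link between LSM11 and the cleavage factors, had 7.62, 9.47 and 9.99 FPKM in control against 7.13, 7.3 and 8.03 FPKM in SMA total RNA. These overlapped, and the log2 fold change of −0.26 (95% interval −0.57 to 0.05) was called only without control replicate 1 (−0.38). Eri1 had 4.27 ± 0.386 FPKM in control and 3.93 ± 0.125 FPKM in SMA total RNA (SD, n = 3 each). Npat had 6.29 ± 1.13 and 5.87 ± 0.859 FPKM in the same libraries. Zfp473 lay between 0.4 and 0.52 FPKM there. In polysomal RNA the genotypes overlapped for Casp8ap2, Npat, Eri1, Lsm11, Slbp and Zfp473. With 3 libraries against 3, an exact permutation test cannot go below p = 0.1.

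Whether the SMA effect differed between the stages was tested as an interaction in each fraction. For Lsm10 the log2 fold change was higher at the late than at the early stage by 0.57 in total RNA (SE 0.19, limma adjusted p = 0.486) and by 0.67 in polysomal RNA (SE 0.21, limma adjusted p = 0.303), and both were called. For Lsm11 the late minus early difference in total RNA was −0.28 (SE 0.11, limma adjusted p = 0.486), also called. The differences of the ring partners had opposite signs in total RNA, with 2 of 6 members called against 10.1% of all tested genes. In polysomal RNA 1 of 6 was called, against 13.7%, and 0.125% and 0.597% of genes passed the adjusted threshold in the 2 fractions. Among genes above 0 FPKM in every library these were 0 genes in total RNA, in place of 19, and 1 in polysomal RNA, in place of 91. Equal medians moved the share of higher calls over all genes from 44.8% to 54.8% in total and from 49.8% to 65.3% in polysomal RNA. With the length trend removed, the total RNA differences were 0.32 for Lsm10 and −0.10 for Lsm11 and neither was called, while that of Lsm10 in polysomal RNA, 0.47, was. Leaving out 1 of the 10 total RNA libraries lost the call of Lsm11 in 6 of the fits. The call of Lsm10 was lost without control early replicate 1 (0.52) or SMA early replicate 2 (0.53) in total RNA, and without control early replicate 2 (0.59) in polysomal RNA. The interaction of Slbp was 0.23 in total RNA (95% interval −0.04 to 0.49) and 0.31 in polysomal RNA (95% interval −0.13 to 0.75). With a library left out in turn, the total RNA differences ran from 0.12 to 0.33 for Slbp and from −0.53 to −0.26 for Casp8ap2. That of Npat in polysomal RNA ran from −0.61 to −0.07. For each of these genes the value farthest from 0 was called.

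Some of these mRNAs had higher values in polysomal than in total RNA. In early-symptomatic control brains Slbp was higher in polysomal RNA by 0.59 on the log2 scale (SE 0.09, limma adjusted p = 0.107) and Lsm11 by 0.32 (SE 0.08, limma adjusted p = 0.152). These were 2 of 6 members, against 25.9% of all tested genes called in either direction and 1.32% past the adjusted threshold, and equal medians moved the share of these calls that were higher from 47.3% to 60.6%. Late-symptomatic, 0 of 6 were called, against 25.3% and 7.12% past the adjusted threshold, with Slbp at 0.23 (SE 0.12) and Lsm11 at 0.20 (SE 0.08). Without control replicate 1 Slbp was called there (0.38), and without control replicate 3 so was Lsm11 (0.21). The labels number the libraries of both fractions alike without saying that a number stands for a brain, and with the number as a block Lsm11 lost its early call and was called late. Between same-numbered libraries the polysomal value of Lsm11 exceeded the total value in 10 of 10 pairs, by 0.15 to 0.41, that of Eri1 in 9 and that of Slbp in 8. Npat and Zfp473 were each lower in polysomal RNA in 9 of 10 pairs. With the lower minimum, the log2 difference of Zfp473 in control brains was −0.71 early (SE 0.14, limma adjusted p = 0.145) and −0.46 late (SE 0.15, limma adjusted p = 0.161), both called, from values of 0.27 to 0.73 FPKM. Lsm10 and Casp8ap2 were higher in 4 and 5 of the 10 pairs. Such counts over pairs were not taken for all tested genes, so they have no background beside them. The median polysomal against total difference over all tested genes was 0.02 early and 0.05 late in control brains.

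**Figure D3:**
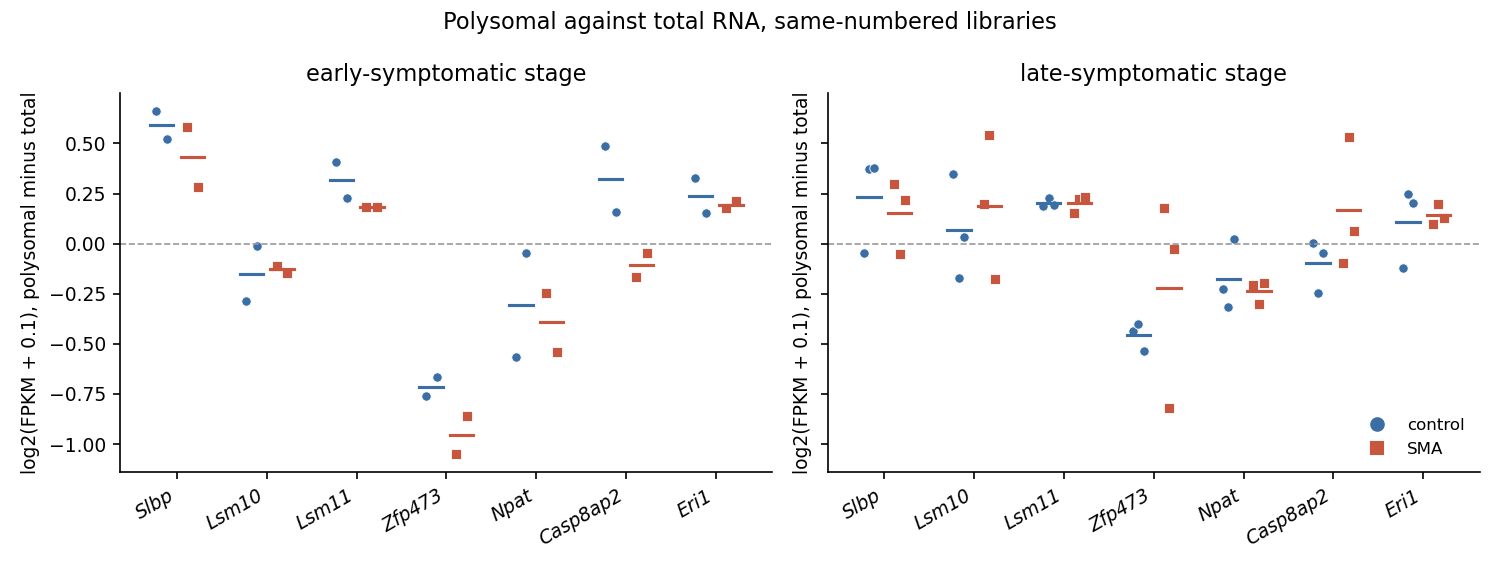
Difference of log2(FPKM + 0.1) between the polysomal and the total library of the same number, for the 7 factors at each stage, with control mice as circles, SMA mice as squares and bars at means. The Lsm11 points all lie above 0, and Zfp473 reaches −1.05.

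The change in translation efficiency, meaning the genotype effect in polysomal RNA minus that in total RNA, was called for 0 of 6 members at the early stage, against 2.32% of all tested genes, and for 0 of 6 at the late stage, against 2.07%. The adjusted threshold was passed by 0.617% and 0.0394% of genes, and by 0 at both stages among genes above 0 FPKM in every library. The value for Casp8ap2 was −0.43 early (95% interval −0.95 to 0.09). Its polysomal minus total difference was 0.49 and 0.16 in early-symptomatic control and −0.17 and −0.05 in SMA brains, so these did not overlap. The late-symptomatic value was 0.26 (95% interval −0.25 to 0.78). For Slbp the changes were −0.16 (95% interval −0.54 to 0.21) early and −0.08 (95% interval −0.41 to 0.25) late.

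Between postnatal day 5 and day 7 of control brains, 3 of 6 members were called in total RNA and 2 of 6 in polysomal RNA, near the shares over all tested genes. In total RNA Slbp fell by 0.31 on the log2 scale (SE 0.05, limma adjusted p = 0.0244), Lsm10 fell by 0.40 (SE 0.08, limma adjusted p = 0.0364) and Lsm11 rose by 0.37 (SE 0.09, limma adjusted p = 0.0526). All day 7 values lay below those of day 5 for Slbp and Lsm10 and above them for Lsm11. These calls stood against 40.3% of all tested genes, and 2 of 6 passed the adjusted threshold, against 21.2%. In polysomal RNA Slbp fell by 0.67 (SE 0.16, limma adjusted p = 0.0528) and Lsm11 rose by 0.26 (SE 0.08, limma adjusted p = 0.0818), 2 of 6, against 42% of genes called and 20.6% past the adjusted threshold. Lsm10 there had a log2 change of −0.18, and Eri1 one of −0.31 (SE 0.14) with no overlap between the days. With the replicate number as a block Slbp lost its polysomal call (−0.71). Tested on genes above 0 FPKM in every library, Lsm11 lost its polysomal call. The call of Lsm11 in total RNA was lost without early control replicate 1 (0.29), as was that of Slbp in polysomal RNA (−0.57). The call of Lsm11 in polysomal RNA was lost with the length trend removed (0.13), which left Slbp called and gained Casp8ap2 (−0.45) and Eri1 (−0.38), and without early control replicate 1 (0.27) or 2 (0.25) or late control replicate 1 (0.22) or 2 (0.23). Zfp473 had 0.73 and 0.71 FPKM at day 5 and 0.40, 0.52 and 0.48 FPKM at day 7 in control total RNA, and with the lower minimum its log2 change of −0.54 was called (SE 0.16, limma adjusted p = 0.117). The control libraries are also those against which SMA brains were compared, and stage cannot be told apart from any difference in when the libraries were prepared.

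Markers of dividing cells were lower in early-symptomatic SMA and had negative medians late as well. Their 15 genes, DNA replication and mitosis factors of which Pcna was the most abundant and none was at 0 in every library, summed to 195 and 197 FPKM in early-symptomatic control and 112 and 109 FPKM in SMA polysomal RNA. In total RNA the sums were 123 and 173 FPKM against 84.6 and 98.3 FPKM. Late-symptomatic, they were 73.7, 84.2 and 119 FPKM in control against 68.7, 87.3 and 56.3 FPKM in SMA total RNA, and 86.0, 102 and 131 against 86.8, 102 and 62.8 FPKM in polysomal RNA. Of these 15 markers 13 fell in early-symptomatic polysomal RNA and 6 in total RNA, 2 late-symptomatic in total RNA and 0 in polysomal RNA, and none rose. Over all tested genes 12.5%, 8.25%, 9.54% and 10.7% were called in these comparisons, so the late counts are near the background or below it. The median log2 fold change of the list was −0.85 in early-symptomatic polysomal RNA, beside −0.01 over all tested genes. In early-symptomatic total RNA their median was −0.74. Late-symptomatic medians were −0.46 in total and −0.66 in polysomal RNA, where the log2 fold changes of Slbp were −0.03 and −0.11. In early-symptomatic polysomal RNA Cdk1, the mitotic kinase and a gene of the study's own primer list, led with −1.65 (SE 0.09, limma adjusted p = 0.0305). Tyms, which makes thymidylate for DNA, followed with −1.02 (SE 0.10, limma adjusted p = 0.161). Ccnb1, a mitotic cyclin, and Mcm3, of the replicative helicase, were also among those that fell. Without SMA replicate 1 or 2 the polysomal count was 7 and 6. The total RNA count was 1 without control replicate 2, 0 without SMA replicate 1 and 2 without SMA replicate 2, and late-symptomatic total RNA gave 0 to 3 with a library left out. The part of these cells in the Slbp values was not tested.

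The substrates of the machinery were lower in SMA at the early stage. The replication-dependent histone genes, 57 tested of 71 in the table, summed to 6801 and 6935 FPKM in early-symptomatic control against 3681 and 3382 FPKM in SMA polysomal RNA, and to 4240 and 4182 against 3399 and 2758 FPKM in total RNA. The sums of the genotypes overlapped at the late stage in both fractions. Of the 57, 44 fell and 0 rose in early-symptomatic polysomal RNA (median log2 fold change −1.11), 18 fell and 0 rose in total RNA, where 12.5% and 8.25% of all tested genes were called, and late-symptomatic 1 fell and 2 rose in total RNA and 1 rose in polysomal RNA. Between genotypes 0 of the 57 passed the adjusted threshold, in either fraction and at either stage. The late-symptomatic medians were still below 0, at −0.40 in total and −0.32 in polysomal RNA. With a library left out in turn, calls in either direction numbered 35 to 41 in early polysomal, 11 to 19 in early total and 0 to 9 in late total RNA. Hist1h2aa, Hist2h2aa1, Hist1h2aj and Hist1h2ao were listed at 0 in every library. Hist1h4d, the most abundant of them and the bearer of the first stem-loop printed, had 1143 ± 7.38 FPKM in control polysomal RNA and 702 ± 19.5 FPKM in SMA (SD, n = 2 for both), with a log2 fold change of −0.70 (SE 0.21, limma adjusted p = 0.392). Hist2h2bb, the next by mean FPKM, had 812 ± 23.1 and 404 ± 0.113 FPKM (log2 fold change −1.01, SE 0.14, limma adjusted p = 0.308). The change in translation efficiency was called for 15 of the 57 early, all lower in SMA, and for 0 late, against 2.32% and 2.07% of all tested genes. Past the adjusted threshold there were 0 of the 57 at both stages, and Slbp was called at neither stage. Between day 5 and day 7 of control brains 20 of the 57 fell in total RNA and 32 in polysomal RNA, and 3 and 1 rose. The share called in total RNA, 40.4%, was that of all tested genes, 40.3%, and in polysomal RNA it was 57.9%, beside 42%, with 23 to 46 called in polysomal RNA when a library was left out.

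**Figure D4:**
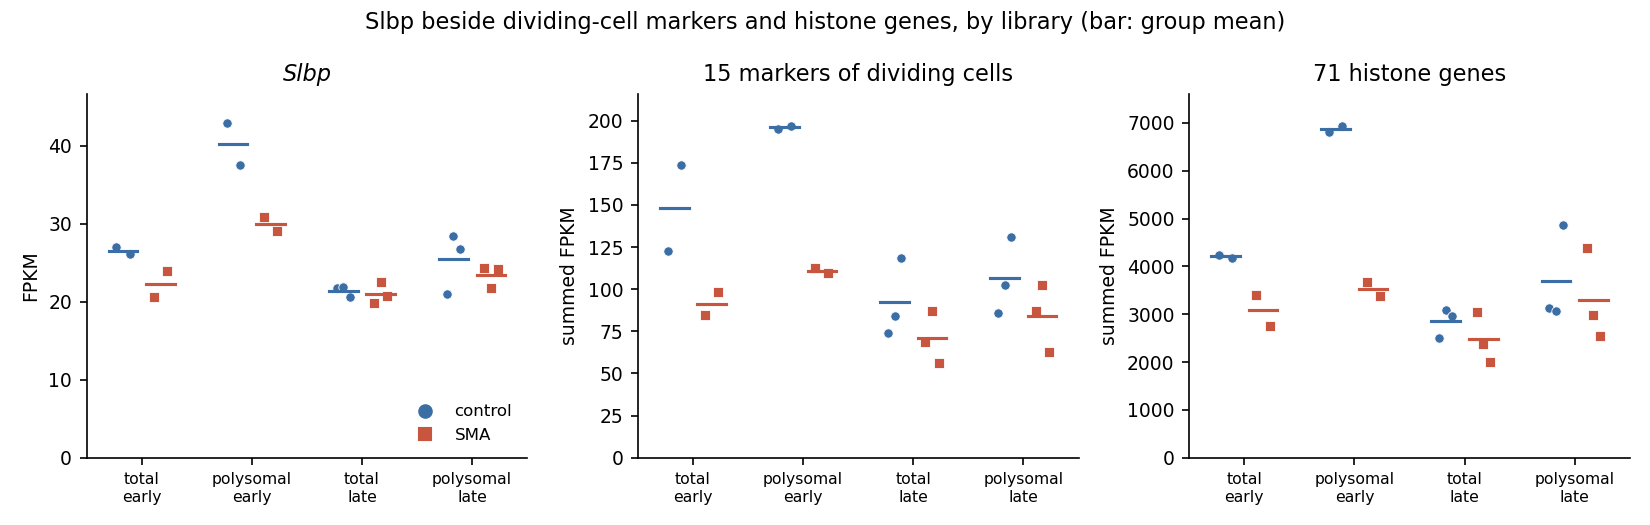
FPKM of Slbp (left), summed FPKM of 15 dividing-cell markers (middle) and of 71 replication-dependent histone genes (right) in each library, on linear axes from 0, with control mice as circles, SMA mice as squares and bars at means. All 3 panels have their highest values in early-symptomatic control polysomal RNA and a gap to the SMA libraries there.

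Genes that work beside the 7 factors were counted from lists chosen, like the members, with earlier results of these data known. Among 10 subunits of the cleavage and polyadenylation machinery that histone and polyadenylated mRNAs share, none was called early-symptomatic, 3 fell late-symptomatic in total RNA (median log2 fold change of the list −0.12) and 1 in polysomal RNA. For every list the background was 8.25% of all tested genes called in total RNA at day 5 and 9.54% at day 7, and 12.5% and 10.7% in polysomal RNA, so that 1 of 10 is near it. Sympk, the scaffold of the histone cleavage complex, fell by 0.15 in late-symptomatic total RNA (SE 0.04, limma adjusted p = 0.329), and Cpsf4 by 0.32 (SE 0.10, limma adjusted p = 0.453). Cstf2 fell by 0.24 in late-symptomatic polysomal RNA (SE 0.06, limma adjusted p = 0.303). Leaving out SMA replicate 1 or 3 brought the total RNA count from 3 to 1. Of 7 genes for the cap-binding complex, coiled bodies and histone promoter factors, 1 fell late-symptomatic in total RNA, Ncbp2, the small cap-binding subunit, with −0.22 (limma adjusted p = 0.520). That call was lost without control replicate 2 or SMA replicate 1 or 3. None of these 7 was called in the other 3 comparisons with all libraries, while leaving out a library gave up to 2 calls in early total, 1 in early polysomal and 2 in late polysomal RNA.

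The mRNAs of the Sm proteins that hold the places of LSM10 and LSM11 in spliceosomal snRNPs were more abundant than those of the U7 pair. Snrpd1, encoding SmD1, had 77.3 ± 6.29 FPKM in early-symptomatic control total RNA (SD, n = 2), where Lsm10 had 20.68 and 19.15 FPKM. Snrpd2, encoding SmD2, had 275 ± 2.69 FPKM, where Lsm11 had 26.64 and 29.76 FPKM. In early-symptomatic polysomal RNA 4 of 7 Sm genes fell, led by Snrpg with −0.51 (SE 0.08, limma adjusted p = 0.346) and Snrpd1 with −0.34 (SE 0.07, limma adjusted p = 0.385). The median log2 fold change of the list was −0.34 there. It was −0.51 in early-symptomatic total RNA, where none was called, and 0.06 and 0.04 in late-symptomatic total and polysomal RNA, also with no call. Without SMA replicate 1 or 2, the polysomal count was 0, and total RNA had 6 calls without SMA replicate 2. The 12 genes of the SMN complex and the methylosome, which load these rings, showed 1 fall in early-symptomatic polysomal RNA (Gemin7, −0.36, SE 0.09) and 2 rises in late-symptomatic total RNA (Gemin4, 0.81, SE 0.20, and Strap, 0.18, SE 0.07). The lowest limma adjusted p of the 3 was that of Gemin4, 0.349. The Gemin7 call was the only one of the list in early polysomal RNA and was lost without SMA replicate 1 or 2. Late total RNA had 1 call without control replicate 1 or 3 or SMA replicate 2 or 3 and 3 without SMA replicate 1, and early total RNA had 2 without SMA replicate 2.

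Beside Eri1, 15 genes of histone mRNA decay were counted. In early-symptomatic polysomal RNA 4 fell and 2 rose (median log2 fold change −0.03), with Lsm3, of the ring that binds oligouridylated tails, at −0.45 (SE 0.11) and Zcchc11, a terminal uridylyl transferase, at 0.53 (SE 0.10). In total RNA 1 fell and 1 rose, and Lsm2 was the fall, at −0.56 (SE 0.09). Late-symptomatic, 1 rose in total RNA (Lsm7, 0.11, SE 0.03) and 2 fell in polysomal RNA. These counts depended on single libraries, with 0 calls in early total RNA without control replicate 1 or 2 and 9 without SMA replicate 2, with 1, 0 and 3 in early polysomal RNA without SMA replicate 1, SMA replicate 2 and control replicate 1, and with 0 to 1 in late polysomal RNA over the 6 libraries left out in turn. Of 13 regulators of the G1 to S transition, which act upstream of NPAT, 4 fell and 1 rose in early-symptomatic total RNA and 5 fell and 1 rose in polysomal RNA (median log2 fold change −0.38). Ccne2, a cyclin partner of the kinase that phosphorylates NPAT, fell by 0.98 (SE 0.21), Ccna2 by 0.71 (SE 0.13) and E2f1 by 0.53 (SE 0.10) in polysomal RNA. Cdkn1a, the p21 inhibitor of these kinases, rose by 0.70 in late-symptomatic polysomal RNA (SE 0.09, limma adjusted p = 0.154). Late-symptomatic, 1 of these 13 rose, Cdkn1a, and 1 fell in each fraction. With a library left out in turn, the late calls in either direction numbered 1 to 4 in each fraction. The early counts depended on single libraries, with 0 calls in total RNA without control replicate 2 or SMA replicate 1 and 1 call in polysomal RNA without SMA replicate 2.

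Among markers of other cell types, those of endothelium were lower in SMA, while the other lists had at most 2 calls in a comparison. The 4 endothelial markers, with Cldn5 the most abundant, summed to 69.3 and 61.3 FPKM in control against 30.2 and 29.4 FPKM in SMA early-symptomatic total RNA and to 125 and 82.2 against 45.1 and 34.4 FPKM in polysomal RNA. Late-symptomatic sums were 39.0, 44.7 and 51.7 against 23.0, 26.7 and 22.8 FPKM in total RNA and 52.5, 52.1 and 60.8 against 28.0, 33.7 and 27.3 FPKM in polysomal RNA. The median log2 fold changes ran from −0.64 to −0.80. All 4 fell in 3 of the comparisons and 3 of 4 in early-symptomatic polysomal RNA. Of 6 neuronal markers Map2 rose in total RNA at both stages (0.37 and 0.11), and Tubb3, of the locus listed at 0, was called in early-symptomatic polysomal RNA. Astrocyte markers had no call among 5, and of 6 tested markers of neural progenitors 1 fell in early-symptomatic total RNA (Barhl1, of cerebellar granule cell precursors, −0.65, SE 0.18). Oligodendrocyte markers had 1 rise (total) and 1 fall (polysomal) of 5 early and none late. Microglial markers had 1 fall of 4 in each early fraction, and 1 rise and 1 fall in total RNA and 1 rise in polysomal RNA late. Of 5 erythroid genes 1 fell in early-symptomatic total and 1 in late-symptomatic polysomal RNA. Liver and muscle genes had 1 tested of 5, Acta1, of the same locus, which was called in early-symptomatic polysomal RNA. Their part in the values of the 7 factors was not tested.

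The promoters of Slbp, Lsm10 and Lsm11, the members called between genotypes or stages among the 6 tested, are shown to compare the letters ahead of genes that fell with those ahead of one that did not. Each run is the 250 bases before the RefSeq transcript start (GRCm38.p6, gene strand), with capitals at matches on either strand to TTTNNCGC or GGCGGGA, both E2F-type motifs, and to CCAAT. Of 32851 promoter windows of that length 4.3% held the first motif, 9.8% the second and 33.8% the third. The Slbp window is chr5:33652575-33652824 (minus), that of Lsm10 chr4:126096403-126096652 (plus) and that of Lsm11 chr11:45944936-45945185 (minus).
Slbp: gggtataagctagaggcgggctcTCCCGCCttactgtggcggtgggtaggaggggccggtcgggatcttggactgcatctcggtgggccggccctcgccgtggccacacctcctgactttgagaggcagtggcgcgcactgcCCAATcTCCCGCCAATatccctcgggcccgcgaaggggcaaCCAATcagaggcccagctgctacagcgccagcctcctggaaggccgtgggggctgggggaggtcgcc
Lsm10: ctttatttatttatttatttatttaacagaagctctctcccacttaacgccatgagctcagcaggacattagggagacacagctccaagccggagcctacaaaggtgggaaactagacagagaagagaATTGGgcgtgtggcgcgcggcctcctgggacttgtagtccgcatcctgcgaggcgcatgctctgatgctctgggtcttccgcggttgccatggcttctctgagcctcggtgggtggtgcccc
Lsm11: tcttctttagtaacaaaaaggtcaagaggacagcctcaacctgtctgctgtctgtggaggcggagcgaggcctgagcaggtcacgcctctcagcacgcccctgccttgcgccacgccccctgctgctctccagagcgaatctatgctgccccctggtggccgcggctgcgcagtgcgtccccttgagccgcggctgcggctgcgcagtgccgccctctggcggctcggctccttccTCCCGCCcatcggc
The Slbp run held 2 matches to GGCGGGA and 3 to CCAAT, and 1 of each overlap there. Lsm10 held 1 CCAAT and no E2F-type match, and Lsm11 held 1 GGCGGGA and no CCAAT. TTTNNCGC was in none of these 3. Among the other members Casp8ap2 held 2 matches of each motif, Npat 1 GGCGGGA and 2 CCAAT, and Zfp473, which has 3 starts in the table, 1 GGCGGGA. A match describes letters only and is no evidence of binding.

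Across the 20 libraries, the genes whose log2 levels were most like each member were ranked by Pearson's r over 14334 genes, as a description over libraries that share stages, fractions and genotypes. Slbp was most like Bud31 (r = 0.962), Atg5 (r = 0.947) and Marc2 (r = 0.947). Lsm11 had equally close neighbours in Plcb1 (r = 0.956), Atp2b1 (r = 0.954) and Cacna2d1 (r = 0.950). Eri1 was most like Cbx1 (r = 0.919), Srsf1 (r = 0.906) and Myef2 (r = 0.898), and Npat most like Son (r = 0.825), Pwwp2a (r = 0.820) and Gm10033 (r = 0.813). Lsm10 had looser neighbours, Neurl2 (r = 0.757), 1700001C02Rik (r = 0.687) and Ap5s1 (r = 0.684), as had Casp8ap2 with Ttc30a1 (r = 0.755), Thrap3 (r = 0.737) and G3bp1 (r = 0.727). No member was among the 3 nearest of another.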

How the data were processed

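Total cytoplasmic and polysomal RNA of mouse brain was sequenced with a stranded total RNA kit (no poly(A) selection). Per the labels, the authors used TopHat2 2.0.14 and Cufflinks 2.2.1 with GRCm38.p4, and deposited gene-level FPKM rounded to 2 decimals (smallest value above 0: 0.01), so reads could not be recovered. limma 3.58.1 (R 4.3.3) was run with a variance trend on log2(FPKM + 0.1) for the 15247 genes whose mean reached 1 FPKM. Fold changes on this scale understate those of low genes. Each comparison was fitted on its own libraries, interactions on all libraries concerned. Genes were called at an unadjusted p under 0.05, the study's threshold, and Benjamini-Hochberg values cover all tested genes. On simulated data, 91% of genes changed by 1 log2 unit were called in early-symptomatic and 94% in late-symptomatic total RNA. Polysomal libraries and smaller changes, such as those of all members between genotypes, were not simulated, and these shares do not apply to them. Transcript lengths came from GENCODE M21, matching 98.8% of identifiers, and the length trend was a lowess curve with a span of 0.3. Named were all members, up to 4 genes of each list with the smallest p, the 2 most abundant histone genes, Smn1, and 3 genes nearest each member by r. Members and lists were chosen with earlier results of these data known. Nothing in the labels says whether libraries of a group came from separate mice, so p-values measure the spread between libraries. Alternatives covered pseudocounts of 1 and 0.01, filters, equal medians, quantile normalization, no variance trend, the length trend, 1 model over all libraries, a replicate block and each library left out. CuffDiff and Xtail, the study's tools, need alignments or counts and were not run.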

Additional observations from a re-analysis of the deposited data

Results flagged for a closer look

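The SMA effect on 2 members differed between the stages by the interaction test at an unadjusted p under 0.05. In total RNA the late minus early difference in log2 fold change was −0.28 for Lsm11, from 0.18 to −0.10 (limma adjusted p = 0.486), and 0.57 for Lsm10, from −0.36 to 0.21 (limma adjusted p = 0.486). In polysomal RNA the difference for Lsm10 was 0.67, from −0.34 to 0.33 (limma adjusted p = 0.303). In total RNA these were 2 of 6 members, against 10.1% of all tested genes called, and in polysomal RNA 1 of 6, against 13.7%. None of these differences passed adjustment over all tested genes. Both total RNA differences lost their call with the length trend removed, and that of Lsm11 also with equal medians or the replicate block. Groups of 2 or 3 libraries were too small for a search for single outlying samples.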

How the results depend on the processing

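Counts of called members out of 6 moved as follows. With adjusted p-values the counts were 0, except that 2 of the 3 held for day 7 against day 5 in total RNA. With the length trend removed, early-symptomatic total RNA went from 1 to 0, early-symptomatic polysomal RNA from 2 to 1, and the stage difference in total RNA from 2 to 0 (1 with equal medians). One model over all libraries gave 1 in early-symptomatic polysomal RNA (Lsm10 lost). Late-symptomatic polysomal RNA went from 0 to 1, Lsm10, with genes above 0 FPKM in every library, equal medians or 1 model. Polysomal against total RNA in late-symptomatic control went from 0 to 1, Lsm11, with genes above 0 or equal medians, and to 2 with 1 model. A filter at 0.1 FPKM gave 1 call there, that of Zfp473, a member outside the 6. Day 7 against day 5 in polysomal RNA went from 2 to 1 with genes above 0 (Lsm11 lost). It went to 3 with the length trend removed (Casp8ap2 and Eri1 gained, Lsm11 lost) or 1 model (Eri1 gained). Leaving out a library gave 0 to 2 in early-symptomatic total and polysomal RNA, 0 to 1 in late-symptomatic total, 0 to 2 in late-symptomatic polysomal, 0 to 1 for polysomal against total in late-symptomatic control, 2 to 3 and 0 to 2 for day 7 against day 5 in total and polysomal RNA, and 0 to 3 and 1 to 1 for the stage difference in total and polysomal RNA. In polysomal RNA the stage difference kept its count, but without control early replicate 2 Lsm10 was lost and Npat (−0.61) gained. The causes were not tested. With 1 control library per fraction left, polysomal against total RNA could not be fitted early-symptomatic.

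Over single members, 1111 of 1170 alternative values kept their side of the threshold, 35 lost and 24 gained a call, 0 called values turned sign and 31 values without a call did. Replicate numbers were treated as names: over all tested genes the total and polysomal libraries of a number deviated together with r of −0.0391 to 0.109, although over 10267 well expressed genes every library correlated best with its own number (r 0.00932 to 0.523), a hint from the data only. With the replicate block the count was 1 in early-symptomatic polysomal RNA (Lsm10 lost), 1 for polysomal against total RNA at each stage (Lsm11 lost early and gained late) and 1 for day 7 against day 5 in polysomal RNA (Slbp lost). The stage difference in total RNA stayed at 2 with Lsm11 lost and Npat (−0.37) gained, and the block changed no other call of a member.

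Over all tested genes, 1 model over all libraries moved the calls from 1258 to 3013 in early-symptomatic total RNA, from 1902 to 3814 in polysomal RNA and from 354 to 590 for the early change in translation efficiency. The replicate block moved them from 1258 to 728 in early-symptomatic total RNA and from 315 to 659 for the late change in translation efficiency. The length correction moved the stage difference from 1547 to 1016 in total and from 2084 to 1377 in polysomal RNA. Lower filters tested more genes and raised the count over 1.5 times in 9 of the 12 comparisons.

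With 2 or 3 libraries a group and no counts, differences smaller than the printed intervals were not detectable.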
